A study of Homo sapiens with 12 samples.

Results

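The genes described here belong to glycolysis, the conversion of glucose to pyruvate and lactate, and to the transcriptional response to low oxygen. They were chosen by name, by a rule that uses no measured value but was written with earlier results of these data known: 17 glycolytic enzymes, 3 regulators of the flow through the pathway, 3 carriers of glucose or lactate and 14 genes known from the hypoxia response. Of these 37 genes, 34 had a transcript cluster annotated to them alone and are reported, out of 18417 genes measured. They comprise 16 enzymes, 3 regulators, 2 glucose carriers and 13 hypoxia-response genes, and the enzyme PGAM1, the lactate carrier SLC16A3 and the carbonic anhydrase CA9 were not analysed here.

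Expression was measured on Affymetrix arrays in 2 cell lines, each with and without decitabine, with 3 arrays in each of 4 groups. Treated KA is the adriamycin-resistant leukaemia line K562/ADR after 5 nM decitabine for 72 hours, and untreated KA is the same line without decitabine. Treated KS is the parental line K562, established from a patient with chronic myeloid leukaemia, after the same decitabine exposure, and untreated KS is K562 without it. The K562/ADR line was kept in 50 nM adriamycin (doxorubicin, an anthracycline), so line and adriamycin in the medium cannot be told apart between KA and KS. Whether untreated cells received a vehicle, whether adriamycin stayed in the medium during treatment and whether replicates were separate cultures is not stated in the labels. The p-values therefore measure only how far these samples spread, which may be technical. Decitabine is a cytidine-like drug that enters replicating DNA, binds DNA methyltransferases there irreversibly and so lowers DNA methylation. The study asked which signalling pathways take part when decitabine acts on drug resistance that rests on the efflux pump P-glycoprotein.

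Glycolysis yields ATP without oxygen, and many leukaemia lines take up glucose and release lactate even when oxygen is present. When oxygen is low, the alpha subunits of the hypoxia-inducible factors (HIF) escape hydroxylation by the prolyl hydroxylases EGLN1 and EGLN3 and degradation through VHL. They then pair with ARNT and bind short DNA sequences in front of genes for glucose carriers, glycolytic enzymes, the growth factor VEGFA, mitophagy receptors and collagen prolyl hydroxylases. EGLN3, P4HA1, PDK1 and other members are themselves known HIF targets.

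The core sequences known for HIF binding are ACGTG and GCGTG. The RefSeq promoter windows of 8 members are shown, chosen after their cores had been counted. Of these, 6 hold ACGTG, from 1 to 5 times, and those of EGLN3 and P4HA2 hold neither core. VEGFA, SLC2A3, BNIP3L and NDRG1 had no such window, and the windows of PDK1 and PFKFB4 are not shown. Each window runs from 250 bases before to 50 bases after an annotated start, on GRCh38.p14, in lower case with every ACGTG and GCGTG on either strand in capitals (CACGT and CACGC are the reverse complements). The palindrome CACGTG holds ACGTG on both strands and was counted once per strand, and adjoining matches run together in capitals.
PGK1, chrX:78103998-78104297, plus strand: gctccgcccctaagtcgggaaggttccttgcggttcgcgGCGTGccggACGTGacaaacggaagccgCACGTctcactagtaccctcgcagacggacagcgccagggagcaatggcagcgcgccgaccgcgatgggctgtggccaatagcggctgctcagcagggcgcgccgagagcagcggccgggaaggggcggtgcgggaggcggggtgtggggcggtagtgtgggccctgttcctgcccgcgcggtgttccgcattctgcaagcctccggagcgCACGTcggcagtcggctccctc
LDHA, chr11:18394313-18394612, plus strand: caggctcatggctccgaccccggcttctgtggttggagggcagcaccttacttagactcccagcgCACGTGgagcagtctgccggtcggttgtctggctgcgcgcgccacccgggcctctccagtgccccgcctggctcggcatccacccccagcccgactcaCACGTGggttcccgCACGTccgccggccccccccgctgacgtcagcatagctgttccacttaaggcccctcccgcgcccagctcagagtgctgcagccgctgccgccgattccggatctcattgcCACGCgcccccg
HK2, chr2:74833877-74834176, plus strand: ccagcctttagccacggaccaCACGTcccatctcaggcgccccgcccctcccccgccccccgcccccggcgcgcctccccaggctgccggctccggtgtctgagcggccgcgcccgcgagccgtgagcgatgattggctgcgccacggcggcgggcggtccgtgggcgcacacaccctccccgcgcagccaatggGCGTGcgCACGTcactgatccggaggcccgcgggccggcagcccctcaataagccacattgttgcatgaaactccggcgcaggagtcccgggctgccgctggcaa
ALDOC, chr17:28576846-28577145, minus strand: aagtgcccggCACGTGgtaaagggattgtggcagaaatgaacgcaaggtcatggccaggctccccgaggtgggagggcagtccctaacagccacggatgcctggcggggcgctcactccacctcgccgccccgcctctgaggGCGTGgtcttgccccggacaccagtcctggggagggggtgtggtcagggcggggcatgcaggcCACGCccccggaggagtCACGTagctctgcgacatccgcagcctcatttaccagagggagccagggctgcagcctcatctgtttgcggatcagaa
BNIP3, chr10:131981874-131982173, minus strand: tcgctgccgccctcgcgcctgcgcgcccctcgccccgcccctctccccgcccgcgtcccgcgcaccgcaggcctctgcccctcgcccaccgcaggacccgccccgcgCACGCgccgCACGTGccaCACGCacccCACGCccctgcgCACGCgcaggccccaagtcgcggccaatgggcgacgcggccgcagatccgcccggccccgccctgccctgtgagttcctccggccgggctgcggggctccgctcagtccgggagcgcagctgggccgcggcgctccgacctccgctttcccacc
P4HA1, chr10:73096817-73097116, minus strand: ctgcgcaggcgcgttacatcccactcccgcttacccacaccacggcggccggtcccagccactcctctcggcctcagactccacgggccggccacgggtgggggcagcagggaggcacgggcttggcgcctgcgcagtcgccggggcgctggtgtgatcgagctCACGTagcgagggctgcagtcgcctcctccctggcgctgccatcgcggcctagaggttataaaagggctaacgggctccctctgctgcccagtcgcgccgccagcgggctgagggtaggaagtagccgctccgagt
EGLN3, chr14:33951025-33951324, minus strand: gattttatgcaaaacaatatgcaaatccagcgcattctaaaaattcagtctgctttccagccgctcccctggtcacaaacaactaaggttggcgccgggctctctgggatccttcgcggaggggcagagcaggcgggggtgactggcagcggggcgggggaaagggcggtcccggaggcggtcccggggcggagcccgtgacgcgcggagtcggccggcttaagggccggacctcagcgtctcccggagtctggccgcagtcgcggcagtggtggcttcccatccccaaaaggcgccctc
P4HA2, chr5:132227042-132227341, minus strand: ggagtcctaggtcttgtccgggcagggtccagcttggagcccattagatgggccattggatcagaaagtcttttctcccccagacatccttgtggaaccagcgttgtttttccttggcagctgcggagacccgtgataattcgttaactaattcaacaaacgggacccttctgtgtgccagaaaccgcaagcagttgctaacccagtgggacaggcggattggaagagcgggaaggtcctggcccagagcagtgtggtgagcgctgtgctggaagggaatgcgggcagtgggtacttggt
LDHA and HK2 have 2 windows in the table, of which the more upstream is shown, and the other 6 genes have 1. The window not shown holds 0 ACGTG and 1 GCGTG for LDHA, and 4 ACGTG and 2 GCGTG for HK2. ACGTG occurred 5 times in the LDHA window, 3 times each in those of PGK1 and ALDOC, 2 times each in those of HK2 and BNIP3, and 1 time in that of P4HA1. GCGTG occurred 4 times in the BNIP3 window, 2 times in that of ALDOC, 1 time each in those of PGK1, LDHA and HK2, and was not found in that of P4HA1. CG dinucleotides, the sites at which DNA methylation is placed, numbered 48 in the BNIP3 window and 19 in that of ALDOC, with 38, 29, 38, 31, 27 and 11 in those of PGK1, LDHA, HK2, P4HA1, EGLN3 and P4HA2.

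Over all members found in the table, 30 genes had 55 windows. ACGTG on either strand was present in 41.8% of the members' windows and in 23.2% of the 19574 windows of the 13770 protein-coding genes that were also measured. GCGTG was present in 43.6% of the members' windows and in 43.4% of all windows, and at least 1 of both cores in 69.1% and in 55.2%. Each window was counted, although windows of the same gene can overlap. By gene, 19 of the 30 members had ACGTG in at least 1 window, and no such count was made over all genes. The median number of CG dinucleotides was 29 in the members' windows and 22 in all windows, and the median share of G and C bases was 69% and 62.7%. These are matches of letters in a fixed window, given as a description. No binding or methylation was measured.

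Values are given on the log2 scale of the deposited table, and differences likewise, with the standard error (SE) of the limma fit after ± and the SD over 3 arrays after ± of a mean. A gene is called higher or lower at a Benjamini-Hochberg adjusted p under 0.05 in limma over all 18417 genes. The 12 array medians ranged from 4.96 to 5.01, and Pearson's r between arrays of the same group was 0.990 to 0.995 across clusters. Every member's mean lay above 3.39, the highest lower quartile of an array and taken as the bound of background, in all 4 groups. The 9 measured erythroid markers of K562 were above that bound in every group too. The array of untreated KS replicate 3 had the lowest array weight (0.424, against 0.634 for the next lowest). Among the 21 members called with decitabine in KS it was the untreated array nearest to the treated arrays for 17. The mean over the 16 enzymes was 9.82, 9.76 and 9.72 in treated KA, 10.03, 10.01 and 10.04 in untreated KA, 9.58, 9.45 and 9.38 in treated KS, and 9.72, 9.69 and 9.65 in untreated KS. In both lines the treated arrays lay below the untreated arrays of the same line by this mean, and untreated KA stood highest of the 4 groups.

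**Figure D1:**
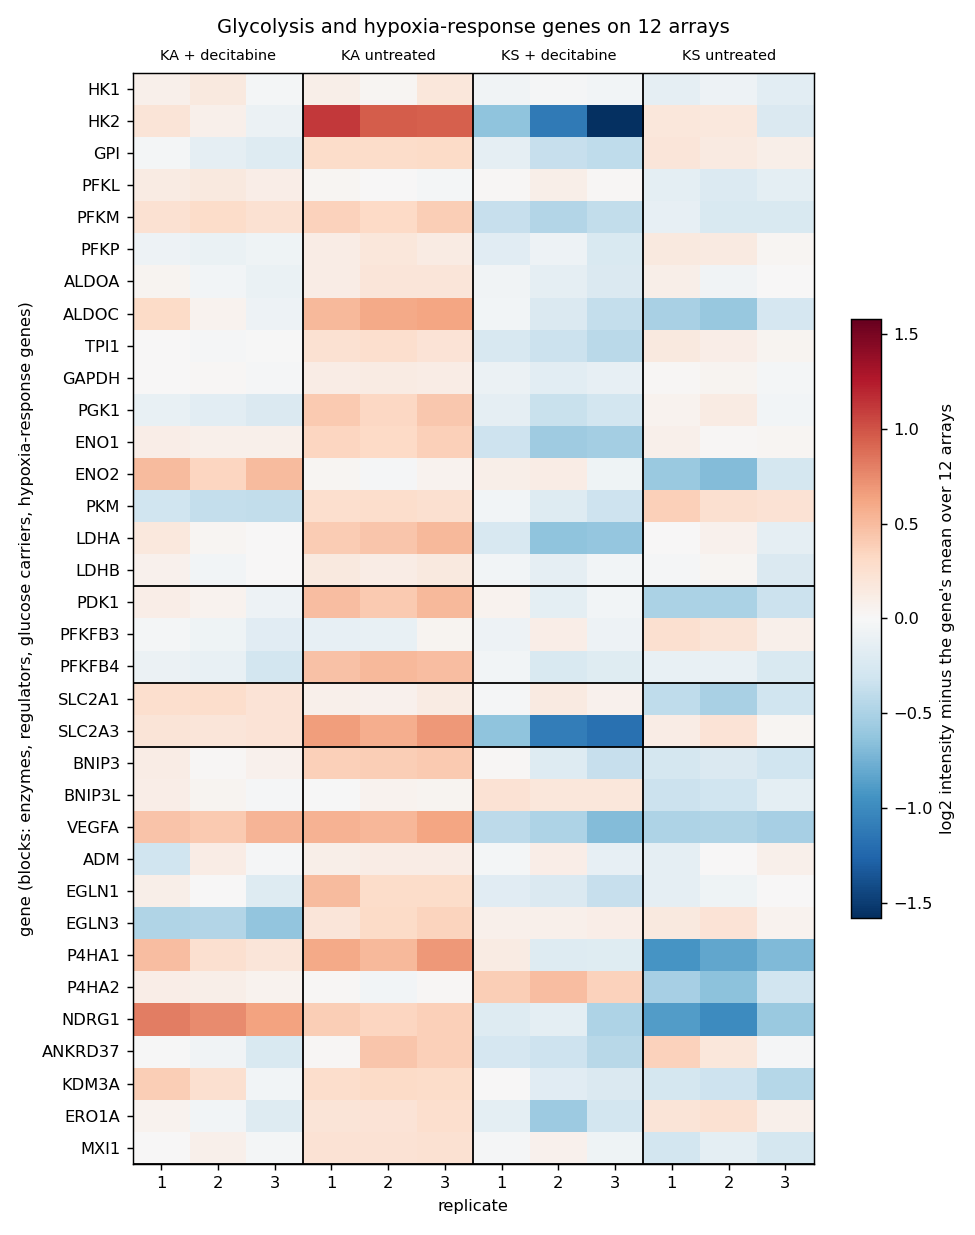
Log2 intensity of the 34 measured genes (rows, in blocks of enzymes, regulators, glucose carriers and hypoxia-response genes) on the 12 arrays (columns, by group and replicate), each gene shown minus its mean over the arrays. HK2 and SLC2A3 are lowest in treated KS, P4HA1 and NDRG1 are lowest in untreated KS, and EGLN3 is lowest in treated KA.

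Untreated KA was set against untreated KS to describe what accompanies drug resistance. Of the 34 genes, 22 were higher in untreated KA and 1 was lower, where 11.6% of all genes tested were called higher and 14.1% lower (25.7% in either direction). The median difference of the members was 0.39, against 0.015 over all genes. By role, 9 of 16 enzymes were higher and 0 lower in limma (10 of the 16 had an unadjusted p under 0.05), 2 of 3 regulators were higher and 1 lower, both glucose carriers were higher, and 9 of 13 hypoxia-response genes were higher. For 28 of the 34 genes every untreated KA array lay above every untreated KS array, and for 1 gene, PFKFB3, below, where this held for 18.4% and 20% of all genes.

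Among the hypoxia-response genes, P4HA1, a catalytic subunit of the enzyme that hydroxylates collagen prolines, read 8.91, 8.83 and 9.005 in untreated KA, against 7.38, 7.50 and 7.62 in untreated KS. The groups were far apart, with a difference of 1.41 ± 0.11, or 2.66-fold (adjusted p = 7.93e-07). NDRG1, a cytoplasmic protein induced by stress and low oxygen, read 8.28, 8.22 and 8.26 in untreated KA and 7.01, 6.89 and 7.29 in untreated KS, a difference of 1.19 ± 0.11 (adjusted p = 3.96e-06). VEGFA, the growth factor for blood vessels, read 9.15, 9.12 and 9.22 in untreated KA and 8.11, 8.12 and 8.07 in untreated KS, with a difference of 1.07 ± 0.078, or 2.09-fold (adjusted p = 4.95e-07). The 3 arrays of each group were tight for VEGFA, while untreated KS replicate 3 read above the other untreated KS arrays for P4HA1 and NDRG1. BNIP3, a receptor that marks mitochondria for autophagy, read 10.41, 10.42 and 10.45 in untreated KA and 9.75, 9.80 and 9.71 in untreated KS (0.67 ± 0.086, adjusted p = 7.3e-05). KDM3A, a histone demethylase, read 8.05, 8.08 and 8.06 in untreated KA and 7.50, 7.45 and 7.32 in untreated KS (0.64 ± 0.10, adjusted p = 0.000479). Neither gene's groups overlapped. The other 4 higher genes of the response differed by 0.30 to 0.49: P4HA2, the sister subunit of P4HA1, by 0.49 ± 0.083, MXI1, an antagonist of MYC, by 0.48 ± 0.068, EGLN1, the main HIF prolyl hydroxylase, by 0.43 ± 0.093, and the mitophagy receptor BNIP3L by 0.30 ± 0.069. Adrenomedullin (ADM), EGLN3, ANKRD37 and ERO1A, an oxidase of the endoplasmic reticulum, were not called, with 95% intervals of -0.099 to 0.36, -0.015 to 0.30, -0.16 to 0.37 and -0.17 to 0.27.

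Among the enzymes, the larger differences were in ALDOC, HK2, PFKM, ENO2 and LDHA. ALDOC, an aldolase, read 9.84, 9.92 and 9.95 in untreated KA and 8.81, 8.72 and 9.06 in untreated KS, a difference of 1.04 ± 0.12 (adjusted p = 2.5e-05). HK2, the inducible hexokinase that phosphorylates glucose at the mitochondrial surface, read 9.03, 8.87 and 8.86 in untreated KA and 8.09, 8.08 and 7.69 in untreated KS, a difference of 0.97 ± 0.19, or 1.95-fold (adjusted p = 0.00175). Untreated KS replicate 3 was the highest of its group for ALDOC and the lowest for HK2, and neither gene's groups overlapped. PFKM, the muscle form of phosphofructokinase, read 7.86, 7.81 and 7.88 in untreated KA and 7.37, 7.25 and 7.25 in untreated KS (0.56 ± 0.064, adjusted p = 2.93e-05). ENO2, the enolase best known from neurons, read 7.83, 7.78 and 7.85 in untreated KA and 7.21, 7.11 and 7.52 in untreated KS (0.54 ± 0.099, adjusted p = 0.00126). LDHA, which reduces pyruvate to lactate, read 11.78, 11.82 and 11.89 in untreated KA and 11.38, 11.44 and 11.24 in untreated KS (0.48 ± 0.099, adjusted p = 0.00295). These groups did not overlap either. PGK1, the first enzyme of the pathway to make ATP, differed by 0.34 ± 0.076 and ENO1, the common enolase, by 0.30 ± 0.071. HK1, the constitutive hexokinase, differed by 0.23 ± 0.069 and PFKL, the liver form of phosphofructokinase, by 0.18 ± 0.060. GPI, PFKP, ALDOA, TPI1, GAPDH, PKM and LDHB were not called. The interval for PKM, which makes pyruvate, was -0.19 to 0.15 and that for GAPDH -0.021 to 0.23.

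PDK1, the kinase that switches off pyruvate dehydrogenase, read 8.98, 8.89 and 8.997 in untreated KA and 7.99, 7.99 and 8.14 in untreated KS, a difference of 0.92 ± 0.079 (adjusted p = 2.35e-06). PFKFB4, which sets the level of the sugar that activates phosphofructokinase, read 7.08, 7.13 and 7.11 in untreated KA and 6.51, 6.51 and 6.39 in untreated KS (0.64 ± 0.077, adjusted p = 4.43e-05). Its relative PFKFB3 was the 1 lower member, with 6.48, 6.49 and 6.65 in untreated KA and 6.86, 6.82 and 6.68 in untreated KS (-0.24 ± 0.082, adjusted p = 0.0454). PFKFB4 and PFKFB3 thus differed in opposite directions, PFKFB3 by the smaller amount. The glucose carrier SLC2A1 read 10.61, 10.59 and 10.65 in untreated KA and 10.12, 10.02 and 10.21 in untreated KS (0.50 ± 0.070, adjusted p = 0.000151). The high-affinity carrier SLC2A3 read 10.56, 10.47 and 10.59 in untreated KA and 10.02, 10.11 and 9.94 in untreated KS (0.52 ± 0.11, adjusted p = 0.00454). Neither carrier's groups overlapped.

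Of these 23 calls, 20 remained under all 20 alternatives run, and 3 did not. HK1 was not called without untreated KA replicate 1 or 3 or untreated KS replicate 1 or 3 (adjusted p 0.0563 to 0.0986). PFKL was not called with any of the 12 arrays left out (adjusted p 0.0505 to 0.131). PFKFB3 was not called without treated KA replicate 1 or 2, untreated KA replicate 1 or 2, treated KS replicate 1 or 3, or untreated KS replicate 1 or 2 (adjusted p 0.053 to 0.15). Without untreated KS replicate 3, 20 members were higher and 1 lower. Cell markers differed in this comparison too. Of 9 erythroid markers 4 were higher (TAL1, HBZ, HBE1 and LMO2) and 0 lower in limma (6 of the 9 had an unadjusted p under 0.05). This was 44.4% called, against 25.7% of all genes, and the median difference of the 9 was 0.0065. KLF1, TFRC, GFI1B and EPOR were not called, with lower means in untreated KA (8.73, 10.74, 7.69 and 6.78) than in untreated KS (8.89, 10.99, 7.92 and 6.84). GATA1 was not called either, with means of 8.90 and 8.89. The summed level of the 9 was 81.1 to 81.3 in untreated KA and 79.8 to 80.4 in untreated KS. Of 9 lymphoid markers CD3D, a chain of the T-cell receptor complex, was called (11.1%), higher by 2.28 ± 0.087. The summed lymphoid level was 38.7 to 39.9 in untreated KA and 36.4 to 37.9 in untreated KS. This sum was set apart mainly by CD3D, with means of 6.95 and 4.67. The median difference of the 9 lymphoid markers was -0.027, and 4 of them were positive. Of 9 monocyte and granulocyte markers MPO was higher (0.31 ± 0.092) and LYZ, lysozyme, lower (-1.20 ± 0.34), 22.2% called. LYZ read 7.05, 7.15 and 7.42 in untreated KA and 7.77, 7.86 and 9.57 in untreated KS. Untreated KS replicate 3 thus carried much of its difference. The summed level of the monocyte and granulocyte markers was 42.2 to 43.4 in untreated KA and 42.0 to 45.6 in untreated KS. In each of these groups 2 lymphoid markers and 1 monocyte and granulocyte marker had a mean at or below the bound of background. Their part in the result was not tested.

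**Figure D2:**
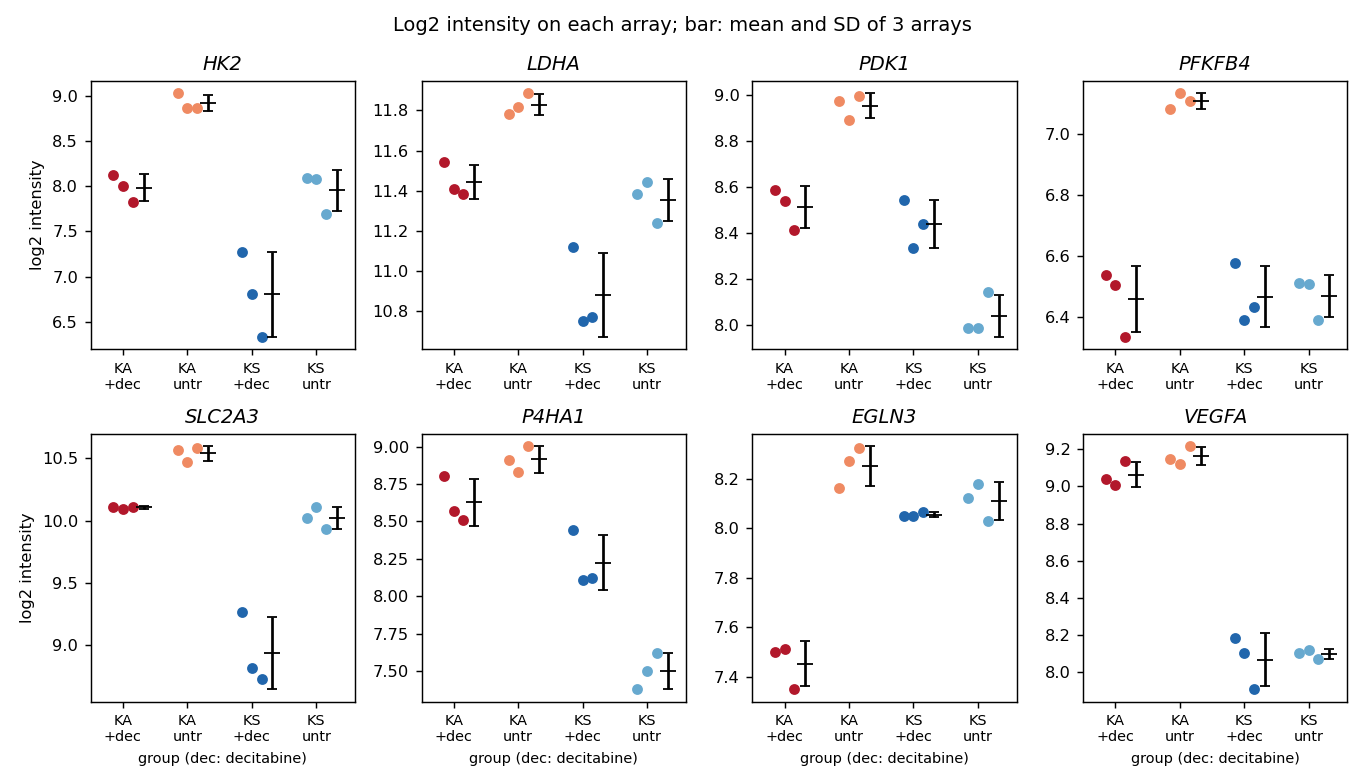
Log2 intensity (vertical, an own scale in each panel) on each of the 12 arrays for HK2, LDHA, PDK1, PFKFB4, SLC2A3, P4HA1, EGLN3 and VEGFA, by group; points are arrays and the black bar is the mean with the SD of 3 arrays. VEGFA is higher on all 6 KA arrays than on all 6 KS arrays, HK2 is lower with decitabine in both lines, and PDK1 is lower with decitabine in KA and higher in KS.

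The comparison of treated with untreated KA asks what decitabine changed in the resistant line. Of the 34 genes, 15 were lower in treated KA and 2 were higher, where 4.96% of all genes were called lower and 9.66% higher (14.6% in either direction). The members' median was -0.24, against -0.019 over all genes. Of the 16 enzymes 9 fell and 1 rose, of the 3 regulators 2 fell, of the 2 glucose carriers 1 fell, and of the 13 hypoxia-response genes 3 fell and 1 rose. Every treated KA array lay below every untreated KA array for 23 members and above for 5, against 16.4% and 19.5% of all genes.

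HK2 read 8.12, 7.999 and 7.82 in treated KA, against 9.03, 8.87 and 8.86 in untreated KA, 1.92-fold lower (-0.94 ± 0.19, adjusted p = 0.00552). PKM, pyruvate kinase, read 9.25, 9.18 and 9.18 in treated KA and 9.83, 9.84 and 9.81 in untreated KA (-0.62 ± 0.078, adjusted p = 0.000396). PGK1 read 10.82, 10.78 and 10.71 in treated KA and 11.36, 11.27 and 11.37 in untreated KA (-0.56 ± 0.076, adjusted p = 0.00061). For all 3 enzymes the lowest untreated array stood well above the highest treated array. ALDOC read 9.62, 9.38 and 9.24 in treated KA and 9.84, 9.92 and 9.95 in untreated KA (-0.48 ± 0.12, adjusted p = 0.0153). LDHA read 11.54, 11.41 and 11.38 in treated KA and 11.78, 11.82 and 11.89 in untreated KA (-0.39 ± 0.099, adjusted p = 0.0213). In both genes treated replicate 1 was the treated array nearest to the untreated ones. The other enzymes that fell were GPI, which isomerises glucose phosphate (-0.42 ± 0.080), ENO1 (-0.25 ± 0.071), TPI1, which interconverts the triose phosphates (-0.25 ± 0.065), and PFKP, the platelet form of phosphofructokinase (-0.23 ± 0.067). ENO2 was the 1 enzyme that rose, with 8.29, 8.14 and 8.30 in treated KA and 7.83, 7.78 and 7.85 in untreated KA (0.43 ± 0.099, adjusted p = 0.0127). ENO1 and ENO2, enolases of the same step, thus changed in opposite directions. HK1, PFKL, PFKM, ALDOA, GAPDH and LDHB were not called, with GAPDH at -0.12 ± 0.059 and an interval of -0.24 to 0.010.

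PFKFB4 read 6.54, 6.50 and 6.33 in treated KA and 7.08, 7.13 and 7.11 in untreated KA (-0.65 ± 0.077, adjusted p = 0.000285). PDK1 read 8.59, 8.54 and 8.41 in treated KA and 8.98, 8.89 and 8.997 in untreated KA (-0.44 ± 0.079, adjusted p = 0.00305). PFKFB4 and PDK1 were below all untreated arrays on all 3 treated arrays, while PFKFB3 overlapped and was not called (-0.031 ± 0.082). SLC2A3 read 10.11, 10.10 and 10.11 in treated KA and 10.56, 10.47 and 10.59 in untreated KA (-0.43 ± 0.11, adjusted p = 0.024), and SLC2A1 was not called (0.16 ± 0.070). EGLN3, a HIF prolyl hydroxylase that is itself induced by HIF, read 7.50, 7.51 and 7.35 in treated KA and 8.16, 8.27 and 8.32 in untreated KA, 1.74-fold lower (-0.80 ± 0.073, adjusted p = 5.45e-05). All 3 treated EGLN3 values lay well below the untreated ones. EGLN1 fell by less (-0.40 ± 0.093), as did BNIP3 (-0.33 ± 0.086). NDRG1 was the 1 hypoxia-response gene that rose, with 8.69, 8.63 and 8.52 in treated KA and 8.28, 8.22 and 8.26 in untreated KA (0.36 ± 0.11, adjusted p = 0.0423). VEGFA was not called, with a difference of -0.10 ± 0.078 and an interval of -0.27 to 0.067.

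Of these 17 calls, 7 remained under all 20 alternatives: GPI, HK2, PGK1, PKM, PDK1, PFKFB4 and EGLN3. The count of lower members was 8 without treated KA replicate 2 and 7 without treated KA replicate 3. Over all 18417 genes the lower calls fell as well, to 557 and 479 in these 2 fits, from 914 with every array. Lower enzymes numbered 4 without treated KA replicate 2 or 3 and 5 without untreated KA replicate 2. Lower hypoxia-response genes numbered 1 without treated KA replicate 3 and 5 without untreated KS replicate 3. Leaving out any 1 of the 6 KA arrays ended the calls of ENO1 (adjusted p 0.0681 to 0.0855), PFKP (0.0725 to 0.121) and NDRG1 (up to 0.131), which was also lost without treated KS replicate 1 or untreated KS replicate 1. SLC2A3 was lost without any KA array except untreated KA replicate 2 (0.0634 to 0.0715), TPI1 without any except untreated KA replicate 3 (0.0599 to 0.0794), and BNIP3 without any except treated KA replicate 1 (0.0557 to 0.0774). LDHA was lost without treated KA replicate 2 or 3 or untreated KA replicate 2 or 3 (0.0573 to 0.079), ALDOC without treated KA replicate 2 or 3 (0.0508 to 0.0705), EGLN1 without treated KA replicate 3 or untreated KA replicate 1 (0.0582 to 0.0595), and ENO2 without treated KA replicate 3 (0.0514). Of the 9 erythroid markers GFI1B alone was called with decitabine in KA and rose (0.59 ± 0.088), 11.1% against 14.6% of all genes. The summed erythroid level was 81.7 to 82.2 in treated KA and 81.1 to 81.3 in untreated KA. Of the 9 monocyte and granulocyte markers LYZ alone was called and rose (1.77 ± 0.34), again 11.1%. Their summed level was 43.7 to 44.5 in treated KA and 42.2 to 43.4 in untreated KA. The part of these markers in the result was not tested.

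With decitabine in KS, 12 of the 34 genes were lower and 9 were higher, where 15.7% of all genes were called lower and 14.6% higher (30.3% in either direction). The members' median was -0.044, against -0.0066 over all genes. Of the 16 enzymes 9 fell and 2 rose. Of the 13 hypoxia-response genes 5 rose and 2 fell, and of the regulators 1 rose. The 2 glucose carriers went apart, SLC2A3 lower and SLC2A1 higher.

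HK2 read 7.27, 6.80 and 6.33 in treated KS, against 8.09, 8.08 and 7.69 in untreated KS, 2.22-fold lower (-1.15 ± 0.19, adjusted p = 0.00045). The treated KS arrays spread wider than the untreated ones for HK2, and the highest of them was still below all untreated arrays. ENO1 read 11.57, 11.34 and 11.36 in treated KS and 11.98, 11.92 and 11.93 in untreated KS (-0.52 ± 0.071, adjusted p = 0.000129). PKM read 9.52, 9.35 and 9.23 in treated KS and 9.93, 9.82 and 9.79 in untreated KS (-0.48 ± 0.078, adjusted p = 0.000459). LDHA read 11.12, 10.75 and 10.77 in treated KS and 11.38, 11.44 and 11.24 in untreated KS (-0.48 ± 0.099, adjusted p = 0.00256). In all 3 genes treated replicate 1 was the treated array nearest to the untreated ones, and the groups did not overlap. PGK1 read 10.80, 10.59 and 10.66 in treated KS and 10.998, 11.07 and 10.90 in untreated KS (-0.31 ± 0.076, adjusted p = 0.00771). GPI changed by -0.44 ± 0.080, TPI1 by -0.44 ± 0.065, PFKP by -0.28 ± 0.067 and PFKM by -0.20 ± 0.064, all lower in treated KS. ENO2 rose, with 7.89, 7.91 and 7.73 in treated KS and 7.21, 7.11 and 7.52 in untreated KS (0.57 ± 0.099, adjusted p = 0.000765), and so did PFKL (0.22 ± 0.060). The enolases ENO1 and ENO2 changed in opposite directions in this line as well.

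SLC2A3 read 9.27, 8.82 and 8.73 in treated KS and 10.02, 10.11 and 9.94 in untreated KS, 2.12-fold lower (-1.09 ± 0.11, adjusted p = 2.15e-05). SLC2A1 read 10.51, 10.66 and 10.59 in treated KS and 10.12, 10.02 and 10.21 in untreated KS (0.47 ± 0.070, adjusted p = 0.000227). Neither carrier's groups overlapped, and they lay in opposite order. PDK1 rose, with 8.55, 8.34 and 8.44 in treated KS and 7.99, 7.99 and 8.14 in untreated KS (0.40 ± 0.079, adjusted p = 0.00172). PFKFB4 was not called (-0.0030 ± 0.077, interval -0.17 to 0.16). P4HA2, the second collagen prolyl hydroxylase subunit, read 7.74, 7.84 and 7.71 in treated KS and 6.82, 6.69 and 7.04 in untreated KS, 1.88-fold higher (0.91 ± 0.083, adjusted p = 1.04e-05). P4HA1 read 8.44, 8.11 and 8.12 in treated KS and 7.38, 7.50 and 7.62 in untreated KS (0.73 ± 0.11, adjusted p = 0.000238). NDRG1 read 7.68, 7.73 and 7.39 in treated KS and 7.01, 6.89 and 7.29 in untreated KS (0.54 ± 0.11, adjusted p = 0.00204). In all 3 genes untreated KS replicate 3 was the untreated array nearest to the treated ones. BNIP3L rose by 0.47 ± 0.069 and MXI1 by 0.23 ± 0.068. ERO1A fell, with 7.89, 7.47 and 7.75 in treated KS and 8.24, 8.28 and 8.12 in untreated KS (-0.51 ± 0.10, adjusted p = 0.00193). ANKRD37, an ankyrin-repeat protein induced by low oxygen, fell too, with 5.32, 5.26 and 5.15 in treated KS and 5.95, 5.76 and 5.56 in untreated KS (-0.52 ± 0.12, adjusted p = 0.00568). For ANKRD37 the groups came nearest to each other between treated replicate 1 and untreated replicate 3 and did not overlap. VEGFA, EGLN1, EGLN3, BNIP3, ADM and KDM3A were not called, VEGFA with an interval of -0.20 to 0.14.

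Of these 21 calls, 18 remained under all 20 alternatives. MXI1 was lost without treated KS replicate 2 or untreated KS replicate 1 or 3 (adjusted p 0.0504 to 0.0799), PFKL without treated KS replicate 2 or untreated KS replicate 2 (0.0509 to 0.0533), and PFKM without treated KS replicate 2 or 3 or untreated KS replicate 1 (0.0663 to 0.131). Treated KS replicate 1 was the treated array nearest to the untreated ones for 13 of the 21 genes, and without it, as without untreated KS replicate 3, the counts were again 9 higher and 12 lower. Other cell markers moved in the same comparison, where 30.3% of all genes were called. Of 9 erythroid markers 6 rose (66.7%), with a summed level of 81.8 to 82.6 in treated KS and 79.8 to 80.4 in untreated KS. Of 9 monocyte and granulocyte markers 3 rose (33.3%), with 47.9 to 48.7 in treated KS and 42.0 to 45.6 in untreated KS. The largest change among them was that of LYZ (2.61), which read 11.06, 11.03 and 10.95 in treated KS and 7.77, 7.86 and 9.57 in untreated KS. S100A8 had a mean of 3.17 in untreated KS, below the bound of background. The part of the markers in the result was not tested, and in such bulk samples fewer cells of a type and less RNA per cell cannot be told apart.

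**Figure D3:**
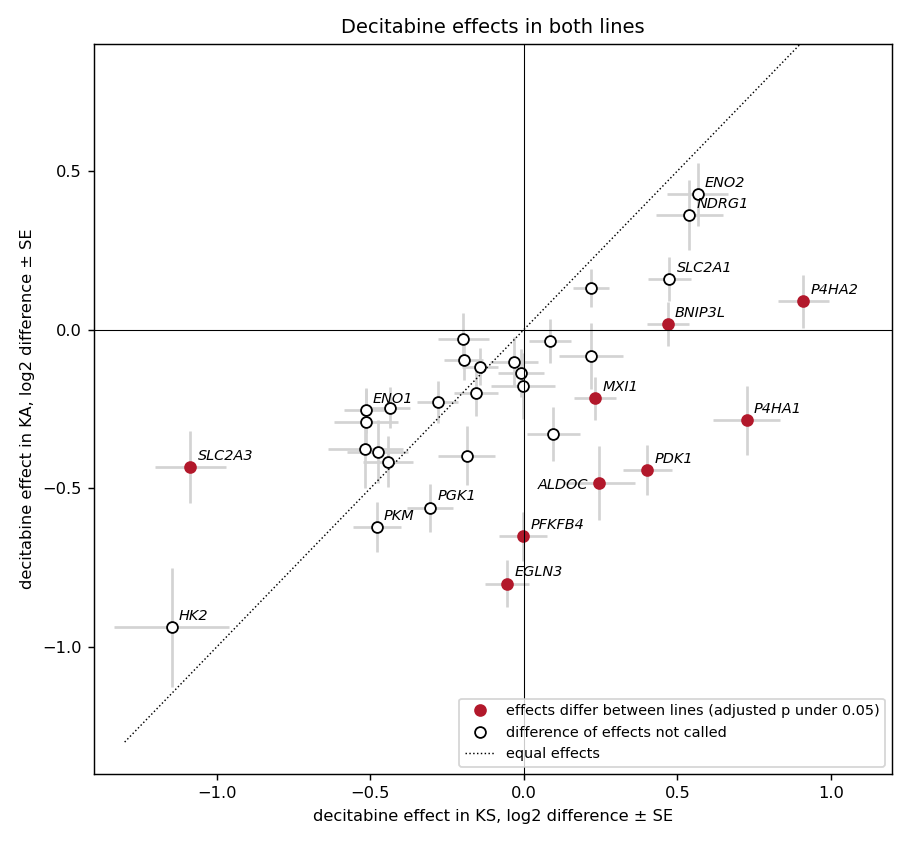
Log2 difference of treated minus untreated cells in KS (horizontal) and in KA (vertical) for the 34 genes, with the SE as bars. Filled points are genes whose effects differed between the lines at an adjusted p under 0.05 in limma, and open points are the others. HK2 and SLC2A3 lie low on both axes, while P4HA1, P4HA2 and PDK1 lie to the right of 0 in KS and well below the diagonal.

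The decitabine differences of both lines come from different arrays. Their calls share 1 estimate of the spread per gene, made from all 12 arrays, so the calls are not fully separate. Called lower in both were 9 of the 34 members, 26.5%, against 3.52% of all genes; they were 9 of the 15 lower in KA and 9 of the 12 lower in KS: the enzymes HK2, GPI, PFKP, TPI1, PGK1, ENO1, PKM and LDHA, and the carrier SLC2A3. Without treated KA replicate 2 or 3 the genes lower in both were 4 members (HK2, GPI, PGK1 and PKM), against 2.11% and 2.06% of all genes. They numbered 5 without treated KA replicate 1 or untreated KA replicate 2 or 3, 6 without untreated KA replicate 1, and 9 to 10 without any 1 KS array. Called higher in both were ENO2 and NDRG1, 5.88% of the members against 6.18% of all genes; these numbered 0 without treated KA replicate 3, and 1 without any other KA array, treated KS replicate 1 or untreated KS replicate 1. PDK1 was called in both with opposite directions, which held for 0.282% of all genes, and without untreated KS replicate 2 or 3 it was 1 of 2 such members.

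The difference between the decitabine effects, the effect in KA minus the effect in KS, was called for 9 of the 34 members, 8 negative and 1 positive, where 2.14% and 4.6% of all genes were called, 6.74% in all. The members' median was -0.13, against -0.0025 over all genes. The called genes were 5 of 13 hypoxia-response genes, 2 of 3 regulators, 1 of 16 enzymes and 1 of 2 carriers. PDK1 changed by -0.44 in KA and 0.40 in KS, and the effects differed by -0.84 ± 0.11 (adjusted p = 0.00236). P4HA1 changed by -0.29 in KA, not called, and 0.73 in KS, and the effects differed by -1.01 ± 0.15 (adjusted p = 0.00379). P4HA2 changed by 0.089 in KA, not called, and 0.91 in KS, and the effects differed by -0.82 ± 0.12 (adjusted p = 0.00289). In these 3 genes the effect in KS was upward, and only that of PDK1 in KA was called. EGLN3 changed by -0.80 in KA and by -0.055 in KS, not called, with a difference of -0.75 ± 0.10 (adjusted p = 0.00276). PFKFB4 changed by -0.65 in KA and by -0.0030 in KS, not called, with a difference of -0.65 ± 0.11 (adjusted p = 0.00699). Both genes had their called change in KA.

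ALDOC was the 1 enzyme among them, at -0.48 in KA and 0.25 in KS, not called, with a difference of -0.73 ± 0.17 (adjusted p = 0.0228). SLC2A3 was the 1 positive case: it fell in both lines, by 1.09 in KS and by 0.43 in KA, and the effects differed by 0.65 ± 0.16 (adjusted p = 0.0325). BNIP3L and MXI1 changed by 0.017 and -0.22 in KA, neither called, and by 0.47 and 0.23 in KS, with differences of -0.45 ± 0.097 and -0.45 ± 0.096. For the enzymes lower in both lines the difference of effects was not called. It was 0.21 ± 0.26 for HK2 (interval -0.36 to 0.78), 0.090 ± 0.14 for LDHA (interval -0.21 to 0.39) and -0.14 ± 0.11 for PKM (interval -0.38 to 0.096). The largest upward value of the 16 enzymes was 0.26, for ENO1, which fell more in KS, while PGK1 fell more in KA. Of the 16 enzymes, 3 had an unadjusted p under 0.05 in limma for this difference. Calls of P4HA1, PDK1, P4HA2, EGLN3 and PFKFB4 remained under all 19 alternatives that apply to this contrast of 4 groups. ALDOC was lost without treated KA replicate 2 or 3, untreated KA replicate 2 or untreated KS replicate 1 or 2 (adjusted p 0.0514 to 0.0609), BNIP3L without untreated KA replicate 2 or untreated KS replicate 1 (0.0507 to 0.0526), and MXI1 without untreated KS replicate 1 (0.0507). SLC2A3 remained called without treated KS replicate 1 or untreated KS replicate 3 and was lost without each of the other 10 arrays (0.052 to 0.0813). Without untreated KS replicate 1 the count of negative differences was 5.

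**Figure D4:**
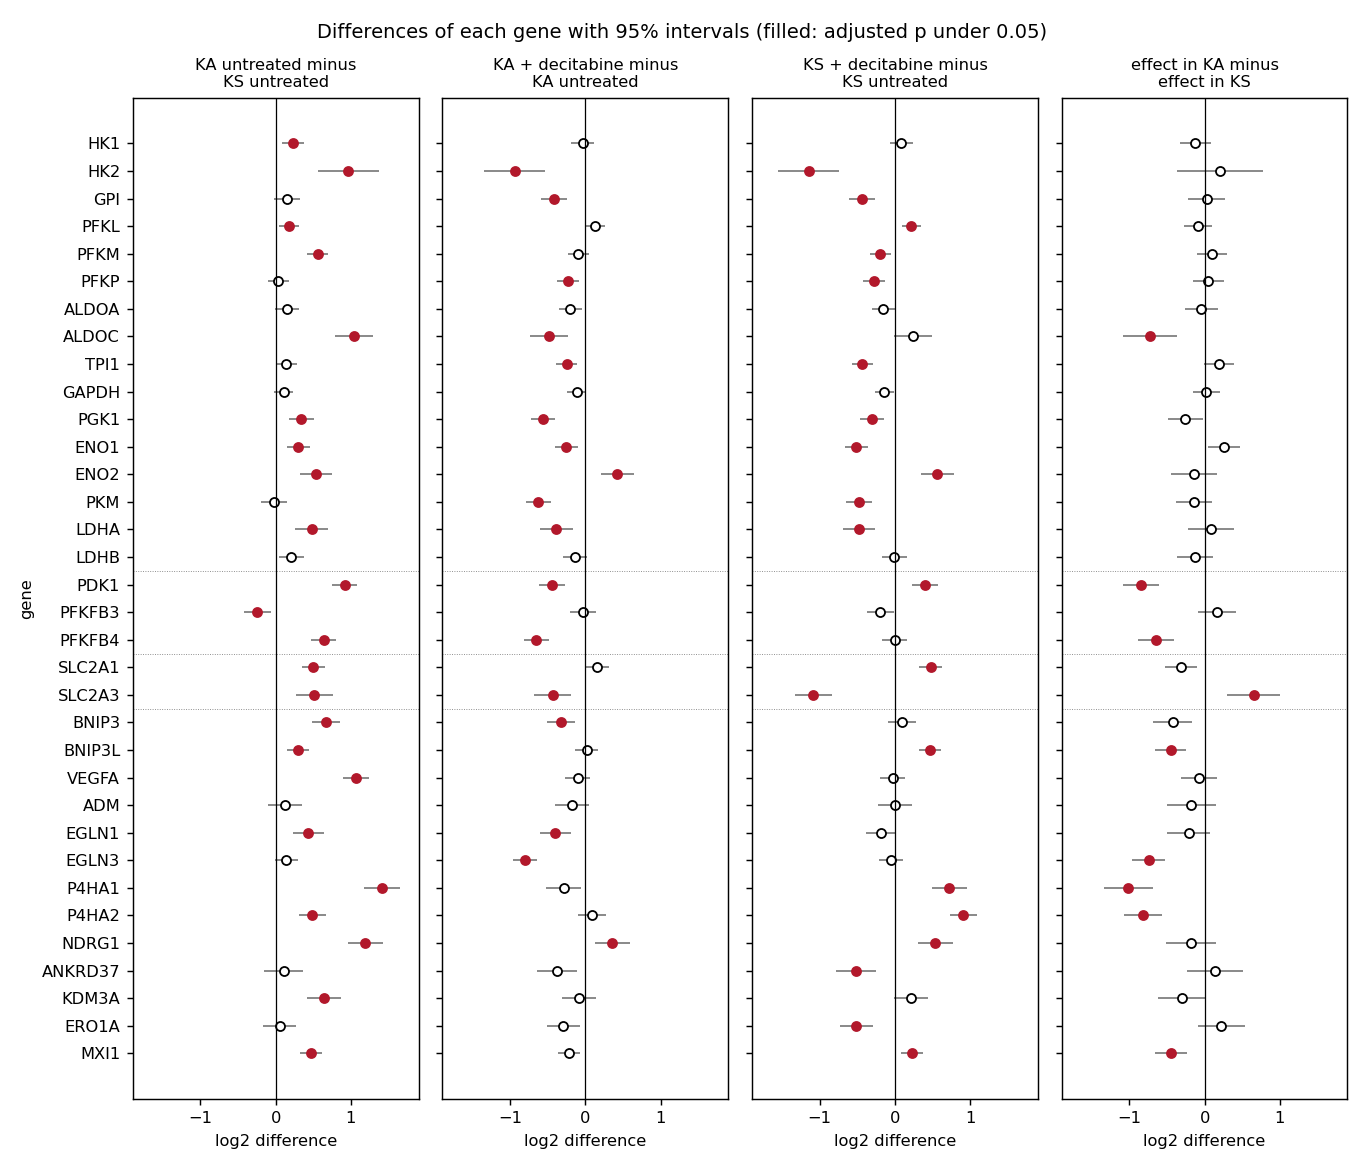
Log2 differences of the 34 genes (rows) with 95% intervals in 4 panels: untreated KA minus untreated KS, treated minus untreated KA, treated minus untreated KS, and the effect in KA minus the effect in KS; filled points have an adjusted p under 0.05. Points lie mostly right of 0 in the first panel and mostly left in the second, and P4HA1, at -1.01, is the lowest of the fourth.

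Treated KA was also set against treated KS, which shares arrays with the comparisons above. Of the 34 members 12 were higher in treated KA and 2 lower, where 15.1% and 11.9% of all genes were called, 27% in all. The members' median was 0.18. HK2 read 8.12, 7.999 and 7.82 in treated KA and 7.27, 6.80 and 6.33 in treated KS, a difference of 1.18 ± 0.19 (adjusted p = 0.000378). SLC2A3 read 10.11, 10.10 and 10.11 in treated KA and 9.27, 8.82 and 8.73 in treated KS (1.17 ± 0.11, adjusted p = 6.52e-06). The groups did not overlap for either gene. NDRG1 differed by 1.01 ± 0.11 and VEGFA by 0.997 ± 0.078, PFKM by 0.66 ± 0.064, LDHA by 0.57 ± 0.099, ENO1 by 0.56 ± 0.071 and TPI1 by 0.33 ± 0.065. ENO2, P4HA1, KDM3A and BNIP3 differed by 0.40, 0.40, 0.34 and 0.25. The lower genes were EGLN3, with 7.50, 7.51 and 7.35 in treated KA and 8.05, 8.05 and 8.07 in treated KS (-0.60 ± 0.073, adjusted p = 3.93e-05), and P4HA2 (-0.33 ± 0.083, adjusted p = 0.00876). PDK1, which separated the untreated lines, read 8.59, 8.54 and 8.41 in treated KA and 8.55, 8.34 and 8.44 in treated KS and was not called (0.072 ± 0.079, interval -0.099 to 0.24). The same was so for PFKFB4 (-0.0077 ± 0.077, interval -0.17 to 0.16). BNIP3 was lost with any array left out but treated KS replicate 1 (adjusted p up to 0.203), KDM3A without treated KA replicate 1 or 2 or treated KS replicate 2 or 3 (0.0806 to 0.125), and P4HA1 without treated KA replicate 1 or treated KS replicate 2 or 3 (0.0582 to 0.0667).

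Set against untreated KS, treated KA had 15 members higher and 6 lower, where 17.5% and 16.6% of all genes were called, 34.2% in all. After quantile normalization the same comparison gave 15 higher and 3 lower. Those with the larger differences were NDRG1 (1.55 ± 0.11), P4HA1 (1.13 ± 0.11), VEGFA (0.97 ± 0.078) and ENO2 (0.96 ± 0.099) upward and EGLN3 (-0.66 ± 0.073) and PKM (-0.64 ± 0.078) downward. HK2 read 7.98 ± 0.15 in treated KA and 7.95 ± 0.23 in untreated KS (SD, n = 3 each) and was not called (0.029 ± 0.19, interval -0.38 to 0.43). LDHA, at 11.44 ± 0.086 in treated KA and 11.35 ± 0.11 in untreated KS, was not called either (0.091 ± 0.099, interval -0.12 to 0.31), nor was SLC2A3 (0.083 ± 0.11, interval -0.17 to 0.33). These 3 genes were higher in untreated KA than in untreated KS and fell with decitabine in KA. Both of those comparisons use the same untreated KA arrays, so they are not separate evidence. The lower calls numbered 3 without treated KA replicate 2, and 2 without treated KA replicate 3 or untreated KS replicate 1 or 2. Of the 21 calls 16 remained under all 20 alternatives, and those of GPI, HK1, PFKFB3, PFKP and PGK1 did not. ALDOA, GAPDH, LDHB and ADM were called in none of the 6 comparisons, 11.8% of the members against 48.3% of all genes. GAPDH read 12.42 ± 0.020 in treated KA, 12.53 ± 0.0058 in untreated KA, 12.29 ± 0.040 in treated KS and 12.43 ± 0.036 in untreated KS, and its treated arrays lay below the untreated arrays in both lines.

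For the HIF pathway itself, the mRNA of 16 genes was measured. HIF protein, its hydroxylation and its activity were not measured. HIF1A, the alpha subunit of the best-known factor, was called in none of the 6 comparisons: it differed by 0.030 ± 0.088 between untreated KA and untreated KS, by 0.012 ± 0.088 with decitabine in KA and by -0.042 ± 0.088 in KS. EPAS1, the alpha subunit of the second factor, read 6.08, 6.15 and 6.34 in treated KA and 5.36, 5.40 and 5.47 in untreated KA (0.78 ± 0.081, adjusted p = 0.000122). In KS it read 7.04, 7.12 and 7.22 in treated and 6.32, 6.22 and 6.28 in untreated cells (0.85 ± 0.081, adjusted p = 1.22e-05). EPAS1 rose in both lines and was lower in untreated KA than in untreated KS (-0.86 ± 0.081, adjusted p = 4.76e-06). VHL, the subunit that recognises hydroxylated HIF alpha, read 6.46, 6.47 and 6.54 in untreated KA and 7.39, 7.28 and 7.27 in untreated KS (-0.82 ± 0.069, adjusted p = 1.78e-06), and CUL2, the scaffold of the same ligase, differed by -0.53 ± 0.079. With decitabine VHL changed by 0.15 in KA, not called, and by -0.25 ± 0.069 in KS, a call lost without untreated KS replicate 1 (adjusted p 0.0652). ARNT differed by 0.21 ± 0.059 between untreated KA and untreated KS, a call lost when only the arrays of those groups were fitted (adjusted p = 0.0619). Its call with decitabine in KS (0.17 ± 0.059, adjusted p = 0.0469) was lost with any array left out (adjusted p 0.0519 to 0.113). CITED2, which competes with HIF for its coactivators, rose with decitabine in KS (0.88 ± 0.12, adjusted p = 9.64e-05). Over the 16 genes, 2 were higher and 6 lower between the untreated lines (50% called, against 25.7% of all genes), 2 higher and 2 lower with decitabine in KA (25%, against 14.6%), and 3 higher and 5 lower in KS (50%, against 30.3%). The lower genes in KA numbered 1 without treated KA replicate 2 or untreated KA replicate 3. Those in KS numbered 2 without treated KS replicate 2 or 3 or untreated KS replicate 1, and 3 without treated KA replicate 1 or 2, untreated KA replicate 2 or untreated KS replicate 2. The higher genes between the untreated lines numbered 1 without untreated KS replicate 1.

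**Figure D5:**
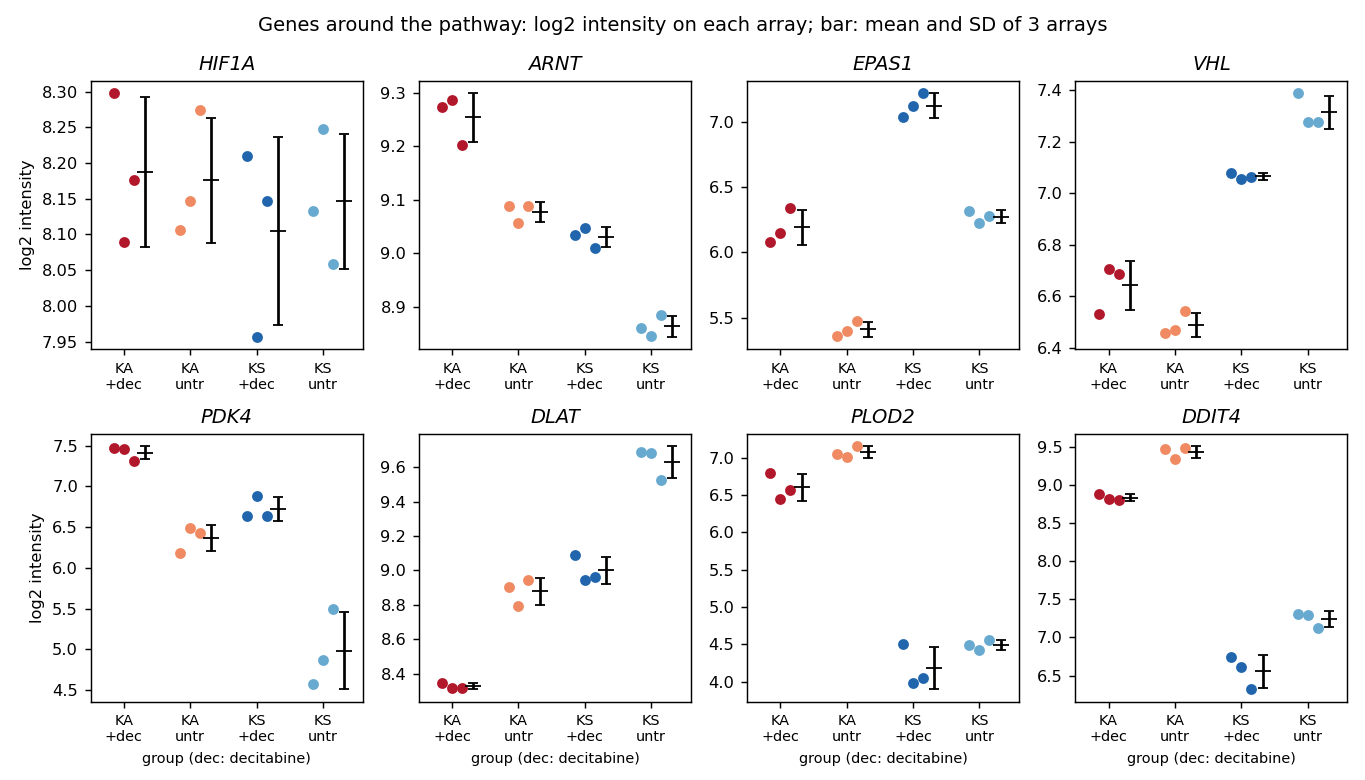
Log2 intensity (vertical, an own scale in each panel) on each of the 12 arrays for HIF1A, ARNT, EPAS1, VHL, PDK4, DLAT, PLOD2 and DDIT4, by group; points are arrays and the black bar is the mean with the SD of 3 arrays. HIF1A shows no call in any comparison, EPAS1 is higher with decitabine in both lines, and PLOD2 and DDIT4 are higher in KA than in KS.

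Of 29 further genes known as HIF targets, 11 were higher and 1 lower in untreated KA than in untreated KS (41.4% called, against 25.7% of all genes), 2 higher and 7 lower with decitabine in KA (31%, against 14.6%), and 4 higher and 3 lower with decitabine in KS. The share in KS, 24.1%, was below the 30.3% of all genes. The 7 lower in KA numbered 4 without treated KA replicate 3 or untreated KA replicate 1 or 2, and the 2 higher numbered 0 without any of these arrays and 1 without any of the other KA arrays. The 1 lower between the untreated lines numbered 2 without treated KA replicate 1 or 3 or treated KS replicate 1, and 3 without untreated KS replicate 3. PLOD2, a collagen lysyl hydroxylase, read 7.05, 7.004 and 7.16 in untreated KA and 4.49, 4.42 and 4.56 in untreated KS, 5.99-fold higher (2.58 ± 0.13, adjusted p = 1.06e-08). DDIT4, an inhibitor of the growth kinase mTOR, read 9.47, 9.34 and 9.49 in untreated KA and 7.31, 7.29 and 7.12 in untreated KS, 4.58-fold higher (2.19 ± 0.10, adjusted p = 5.76e-09). The groups of both genes were far apart. With decitabine DDIT4 fell in KA (-0.60 ± 0.10) and in KS (-0.68 ± 0.10). AK4, a mitochondrial adenylate kinase, was higher in untreated KA (0.81 ± 0.083), and STC2, a secreted glycoprotein, was lower (-0.70 ± 0.11). BHLHE40, a repressor induced by low oxygen, changed by -0.56 ± 0.075 with decitabine in KA and by 0.38 ± 0.075 in KS, both called, and these effects differed by -0.94 ± 0.11 (adjusted p = 0.00138). HILPDA, a lipid droplet protein, and FAM162A, a mitochondrial protein, fell with decitabine in KA (-0.52 ± 0.10 and -0.50 ± 0.093) and were not called in KS. HILPDA had means of 6.19 in treated and 6.37 in untreated KS, and its difference of effects was not called. That of FAM162A was called in limma, and the call was lost without each of 10 arrays (adjusted p 0.0504 to 0.0907).

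Pyruvate leaves glycolysis for the mitochondria through the pyruvate carrier and pyruvate dehydrogenase, of which 12 genes were measured. Between the untreated lines 4 were higher and 2 lower (50% called, against 25.7% of all genes), with decitabine in KA 2 were higher and 3 lower (41.7%, against 14.6%), and in KS 1 was higher and 4 lower (41.7%, against 30.3%). The 3 lower in KA numbered 1 without untreated KA replicate 2, and the 2 higher numbered 1 without any array except treated KA replicate 1 and untreated KS replicate 1 and 3. The 4 lower in KS numbered 2 without treated KS replicate 3 or untreated KS replicate 2. PDK4, a kinase that inhibits the complex as PDK1 does, read 7.47, 7.46 and 7.32 in treated KA and 6.18, 6.49 and 6.43 in untreated KA (1.05 ± 0.18, adjusted p = 0.00222). In KS it read 6.64, 6.89 and 6.64 in treated and 4.58, 4.87 and 5.50 in untreated cells, 3.34-fold higher (1.74 ± 0.18, adjusted p = 1.89e-05). PDK4 rose in both lines, whereas PDK1 fell in KA and rose in KS. DLAT, the acetyltransferase of the complex, fell in KA (-0.55 ± 0.073) and in KS (-0.63 ± 0.073) and was lower in untreated KA than in untreated KS (-0.75 ± 0.073). MPC1, a subunit of the pyruvate carrier, fell in KS (-0.82 ± 0.10) and in KA (-0.42 ± 0.10), where the call was lost without treated KA replicate 1 or untreated KA replicate 2 (adjusted p 0.0518 to 0.0549).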

How the data were processed

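RNA of 12 samples was hybridised to Affymetrix arrays. The authors deposited 1 table of log2 intensities. Background correction, summarization and normalization before that are not given in the sources used here, and no scaling was added. Of 33297 transcript clusters, 19460 carry 1 gene symbol, 1754 several and 12083 none per the platform annotation, and 19429 of the first kind matched a RefSeq gene by Entrez identifier. The brightest cluster over all arrays stood for each of 18417 genes (769 had more than 1).

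A model with 1 mean per group was fitted to all 12 arrays with limma 3.58.1 in R 4.3.3. Variances were moderated (residual degrees of freedom 8, prior 4.71), p-values were adjusted over all genes, and intervals cover 95% before adjustment. The fit was tested on simulated data. The members, the other lists and the comparisons were chosen with earlier results of these data known, so a count is a description. Genes with values for each array are members called with a difference of at least 0.5 or among the 5 largest of a comparison, and PFKFB3, added after its values were seen. From each other list at most 4 called genes per comparison are named, beside HIF1A, ARNT, EPAS1 and VHL, with values in the other line. Alternatives were median centring, quantile normalization, a filter on dim genes, the mean of a gene's clusters, trended and robust variances, a replicate block, array weights, only the arrays compared, and each array left out. The plots were made in matplotlib 3.10.9.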

Additional observations from a re-analysis of the deposited data

Results flagged for a closer look

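The decitabine effect differed between the lines, by the test of the difference itself in limma (effect in KA minus effect in KS, adjusted p under 0.05), for 9 of the 34 genes. P4HA1 differed by -1.01, from -0.29 in KA and 0.73 in KS. PDK1 differed by -0.84, from -0.44 in KA and 0.40 in KS, and P4HA2 by -0.82, from 0.089 in KA and 0.91 in KS. EGLN3 differed by -0.75, from -0.80 in KA and -0.055 in KS, and PFKFB4 by -0.65, from -0.65 in KA and -0.0030 in KS. These 5 calls remained under all 19 alternatives run for them. ALDOC differed by -0.73, from -0.48 in KA and 0.25 in KS, and SLC2A3 by 0.65, from -0.43 in KA and -1.09 in KS. BNIP3L and MXI1 both differed by -0.45, from 0.017 and -0.22 in KA and 0.47 and 0.23 in KS. These last 4 calls were each lost with at least 1 array left out: ALDOC without treated KA replicate 2 or 3, untreated KA replicate 2 or untreated KS replicate 1 or 2, BNIP3L without untreated KA replicate 2 or untreated KS replicate 1, MXI1 without untreated KS replicate 1, and SLC2A3 without each of 10 arrays (highest adjusted p 0.0609, 0.0526, 0.0507 and 0.0813 for these genes in the order named). What lies behind the differences was not tested.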

How the results depend on the processing

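Each result was recomputed under 20 alternatives, the difference of effects under 19, since it uses all groups. Calls among the members that remained under all of them numbered 7 of 17 for decitabine in KA, 18 of 21 for decitabine in KS, 20 of 23 for the untreated lines, 5 of 9 for the difference of effects, 11 of 14 for the treated lines and 16 of 21 for treated KA against untreated KS, and no member's difference turned its sign as a called value. Members called higher with decitabine in KA numbered 1 after quantile normalization and 1 with the replicate block, where 2 were called, and the 1 lower member between untreated lines became 0 with arrays centred on 1 median, after quantile normalization, with the replicate block and with only the arrays compared. Positive differences of effects among the members numbered 2 with trended and robust variances. Lower members in treated KA against untreated KS numbered 3 after quantile normalization. Over all genes, array weights gave 1819 lower with decitabine in KA (914 without weights), and 1474 positive and 814 negative differences of effects (847 and 394 without), where trended and robust variances gave 1337 positive and the replicate block 495. With 1 array left out, members called with decitabine in KA numbered 0 to 2 higher and 7 to 17 lower, and all genes 1133 to 1943 higher and 479 to 1077 lower. Lower members between the untreated lines numbered 0 to 1, and lower members in treated KA against untreated KS 2 to 7. Differences of effects numbered 0 to 1 positive and 5 to 9 negative among the members, and 364 to 1300 positive and 200 to 749 negative over all genes. The cause was not tested. Over all genes, quantile normalization moved the share of positive calls among differences of effects to 53.9%, against 68.3%.

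Replicate numbers are shared across groups, but arrays with the same number did not deviate together: the correlations of their deviations from the group means were -0.13, -0.014 and 0.13 between treated and untreated KA and 0.066, -0.22 and -0.028 between treated and untreated KS. The numbers were therefore not taken as pairing. With the replicate block, calls lost among the members were 2 for decitabine in KA (NDRG1, PFKP), 1 for decitabine in KS (PFKM), 2 for the untreated lines (PFKFB3, PFKL), 0 for the difference of effects, 1 for the treated lines (BNIP3) and 3 for treated KA against untreated KS (HK1, PFKP, PGK1). With 3 arrays in a group, their number limits the precision.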

Other observations

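Of 17 measured isoenzymes and side branches of the pathway, 2 were higher and 4 lower in untreated KA than in untreated KS (35.3% called, against 25.7% of all genes), 4 were higher and 0 lower with decitabine in KA in limma (23.5%, against 14.6%; 6 of the 17 had an unadjusted p under 0.05), and 4 higher and 3 lower with decitabine in KS (41.2%, against 30.3%). The 4 lower between the untreated lines numbered 1 without untreated KA replicate 1 and 2 without untreated KS replicate 2 or 3. BPGM, the red-cell enzyme that makes bisphosphoglycerate, read 7.61, 7.74 and 7.82 in untreated KA and 6.66, 6.72 and 6.48 in untreated KS (1.11 ± 0.089, adjusted p = 1.21e-06). PKLR, the pyruvate kinase of liver and red cells, was lower in untreated KA than in untreated KS (-0.78 ± 0.097, adjusted p = 5.87e-05) and rose with decitabine in KA (0.57 ± 0.097) and in KS (0.45 ± 0.097), while PKM fell in both. ENO3, the muscle enolase, read 6.18, 6.21 and 6.13 in treated KA and 5.49, 5.61 and 5.65 in untreated KA (0.59 ± 0.091, adjusted p = 0.0012), and rose in KS as well (0.80 ± 0.091, adjusted p = 3.29e-05). ENO2 and ENO3 thus rose and ENO1 fell in both lines. In KA the ENO1 call was lost in limma without any 1 of the 6 KA arrays (adjusted p 0.0681 to 0.0855), and the ENO2 call without treated KA replicate 3 (0.0514).

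Of 12 genes of gluconeogenesis and glycogen, 2 were higher and 0 lower in limma in untreated KA than in untreated KS (16.7% called, against 25.7% of all genes). Of the 12, 5 had an unadjusted p under 0.05 there. With decitabine in KA 3 were higher and 1 lower (33.3%, against 14.6%), and in KS 3 were higher and 3 lower (50%, against 30.3%). In KA 1 was higher and 0 lower without treated KA replicate 1 or untreated KA replicate 2, where GYS1, PYGL and G6PC3 were not called in limma, 1 was higher without untreated KA replicate 1, and 2 were lower without untreated KA replicate 3 or untreated KS replicate 3. PCK2, the mitochondrial enzyme that makes phosphoenolpyruvate, read 8.04, 8.11 and 8.15 in untreated KA and 7.43, 7.25 and 7.25 in untreated KS (0.79 ± 0.088, adjusted p = 2.21e-05). With decitabine it fell in KS (-0.73 ± 0.088) and was not called in KA (0.15 ± 0.088), and these effects differed by 0.87 ± 0.12 (adjusted p = 0.00289). PYGB, a glycogen phosphorylase, rose in KA (0.44 ± 0.10) and was not called in KS (-0.26 ± 0.10), with a difference of 0.70 ± 0.14 (adjusted p = 0.014). Of 10 other sugar and lactate carriers, 1 was higher and 1 lower in untreated KA than in untreated KS, and likewise with decitabine in KS (20% called in each, against 25.7% and 30.3% of all genes). With decitabine in KA 0 of the 10 were called in limma (1 had an unadjusted p under 0.05), against 14.6% of all genes. In KS the lower count was 0 without treated KS replicate 2, and the higher count 2 without treated or untreated KS replicate 3. SLC16A7, a carrier of pyruvate and lactate, read 4.93, 5.08 and 4.94 in untreated KA and 3.24, 3.82 and 3.69 in untreated KS (1.40 ± 0.14, adjusted p = 8.33e-06). SLC2A12, a glucose carrier, rose with decitabine in KS (0.90 ± 0.093, adjusted p = 1.81e-05) and was not called in KA (0.15 ± 0.093), and these effects differed by -0.75 ± 0.13 (adjusted p = 0.0079).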
